A study of Mus musculus with 12 samples.

Results

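The genes described here encode the machinery that moves new secretory proteins into the endoplasmic reticulum (ER), glycosylates them there and carries them to and from the Golgi. They are a chosen set of 52 genes, matched by symbol to the Entrez gene IDs of the deposited count table: 52 of its 27179 IDs. The set was chosen with earlier results of these data known. Its counts beside the shares of all tested genes are therefore a description, not independent support. All 52 were found, and all 52 passed the filter on low counts, as did 13131 IDs in total. The set holds 6 genes of the signal recognition particle (SRP) and its receptor, 7 of the translocon, 4 of the translocon-associated protein (TRAP) complex, 5 of signal peptidase, 8 of oligosaccharyltransferase, 9 of the COPII coat, 6 of the COPI coat and 7 cargo receptors.

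RNA was sequenced from B cells sorted from C57BL/6 mice in 6 groups of 2 libraries each. The Myb knockout groups carried Myb fl/fl CD23-cre T/+ and their controls Myb fl/fl without cre, so loss of Myb and presence of cre cannot be told apart. From these mice came plasmablasts, taken 5 days after a boost with NP-KLH in PBS, and germinal centre (GC) B cells, taken on day 12 after NP-KLH in alum. The Moz knockout group carried Moz fl/fl AID-cre T/+ and its control AID-cre T/+ alone, and both gave GC B cells on day 7 after the same priming. CD23-cre acts in mature B cells and AID-cre in activated B cells. Every library was polyA RNA of a pool of 2 to 8 mice, and same-numbered pools of a knockout and its control share experiment dates. Plasmablasts and GC B cells have no date in common. Ages, sort gates and the exons removed by cre are not given, and whole-gene counts of Myb and Kat6a (Moz) therefore check nothing about the deletions.

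Proteins that carry a signal peptide are caught by SRP while still on the ribosome, passed through the Sec61 channel, trimmed by signal peptidase and given N-linked glycans by oligosaccharyltransferase. COPII vesicles then carry the cargo towards the Golgi, and COPI vesicles return escaped ER residents and receptors. Cells that secrete antibody expand this route greatly on their way from B cell to plasma cell, under transcription factors such as Blimp-1 and XBP1.

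The libraries held 8285934 to 24801297 counts. Immunoglobulin genes took 65.0 to 70.0% of them in plasmablasts and 1.59 to 9.16% in GC B cells. Summed over 8 plasmablast markers (Prdm1, Irf4, Sdc1, Jchain, Tnfrsf17, Mzb1, Slpi and Cd28), plasmablast libraries had 116630 to 162310 CPM, which are counts scaled to library size, and GC libraries 1167 to 8148. Over 9 GC markers the sums were 65.7 to 78.3 CPM in plasmablasts and 1177 to 2087 in GC libraries, so both labels matched their markers. Sums over 9 T cell markers were 5.66 to 13.9 CPM and over 8 myeloid markers 6.09 to 65.9. Over 6 NK and plasmacytoid dendritic cell markers they were 0.908 to 5.70 and over 4 erythroid markers 0.290 to 1.89. Those over 6 naive follicular B cell markers were higher, at 43.6 to 208 CPM in plasmablasts and 206 to 562 in GC libraries. The Myb knockout GC pools had 402 and 206 CPM of these. CPM here are also scaled by TMM, a method that sets the bulk of genes equal between libraries. This matters because immunoglobulin RNA displaces the rest: TMM factors were 0.392 to 0.450 in plasmablasts and 1.45 to 1.73 in GC B cells.

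The secretory machinery was much more highly expressed in plasmablasts than in GC B cells. Immunisation, day, date and, in the Myb mice, depth differ together with cell type, so they cannot be told apart. Of all counts outside immunoglobulin genes, the 52 genes held 2.89 and 3.05% in the Myb knockout plasmablast pools and 2.97 and 2.99% in the control plasmablast pools. They held 0.686 and 0.791% in Myb knockout GC pools, 0.564 and 0.677% in Myb control GC pools, 0.820 and 1.05% in Moz knockout GC pools and 0.792 and 0.892% in Moz control GC pools. By this share every plasmablast pool lay above every GC pool. By the share of all counts, immunoglobulin included, the cell types overlapped. Moz knockout GC pool 2 had 0.950%, against 0.868% in Myb knockout plasmablast pool 1 and 0.946% in control plasmablast pool 2. Between control plasmablasts and control GC B cells of the Myb mice, edgeR called 50 of the 52 higher and 0 lower at an adjusted p under 0.05, where 25.0% of all tested genes were called higher and 28.1% lower. At least 2-fold higher were 48 of the 52, against 20.7% of all tested genes. In all 52 both plasmablast pools lay above both GC pools, a pattern shown by 34.4% of all tested genes, while 45.1% had any positive log2 fold. At an unadjusted p under 0.05 were 51 of the 52 and 58.4% of all tested genes. The median log2 fold change was 2.35 over the 52 genes and -0.17 over all tested genes. The 2 not called were Stt3b and Sar1b, and DESeq2 and limma-voom called 51 each (26.9 and 24.9% of all tested genes higher). With the experiment date as a block 52 of 52 were called (31.3% of all tested genes). The cell types share no date, however, so the block pairs none of their pools and only takes the spread between dates out of the error, and the 2 calls gained with it support nothing here. In bulk RNA, fewer cells of a type and less RNA per cell cannot be told apart.

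These folds are relative to the bulk of genes. Divided by total counts with immunoglobulin included and no scaling factor, a setting added after the data were seen, the median over all tested genes fell to -2.04, with 1108 called higher and 9877 lower. On that scale 22 of the 52 genes were called higher and 7 lower in control plasmablasts, with a median log2 of 0.47. With immunoglobulin genes left out and no scaling factor, 50 of the 52 were called higher and the median log2 was 2.03, against -0.48 over all tested genes, of which 2430 were called higher and 4894 lower.

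**Figure D1:**
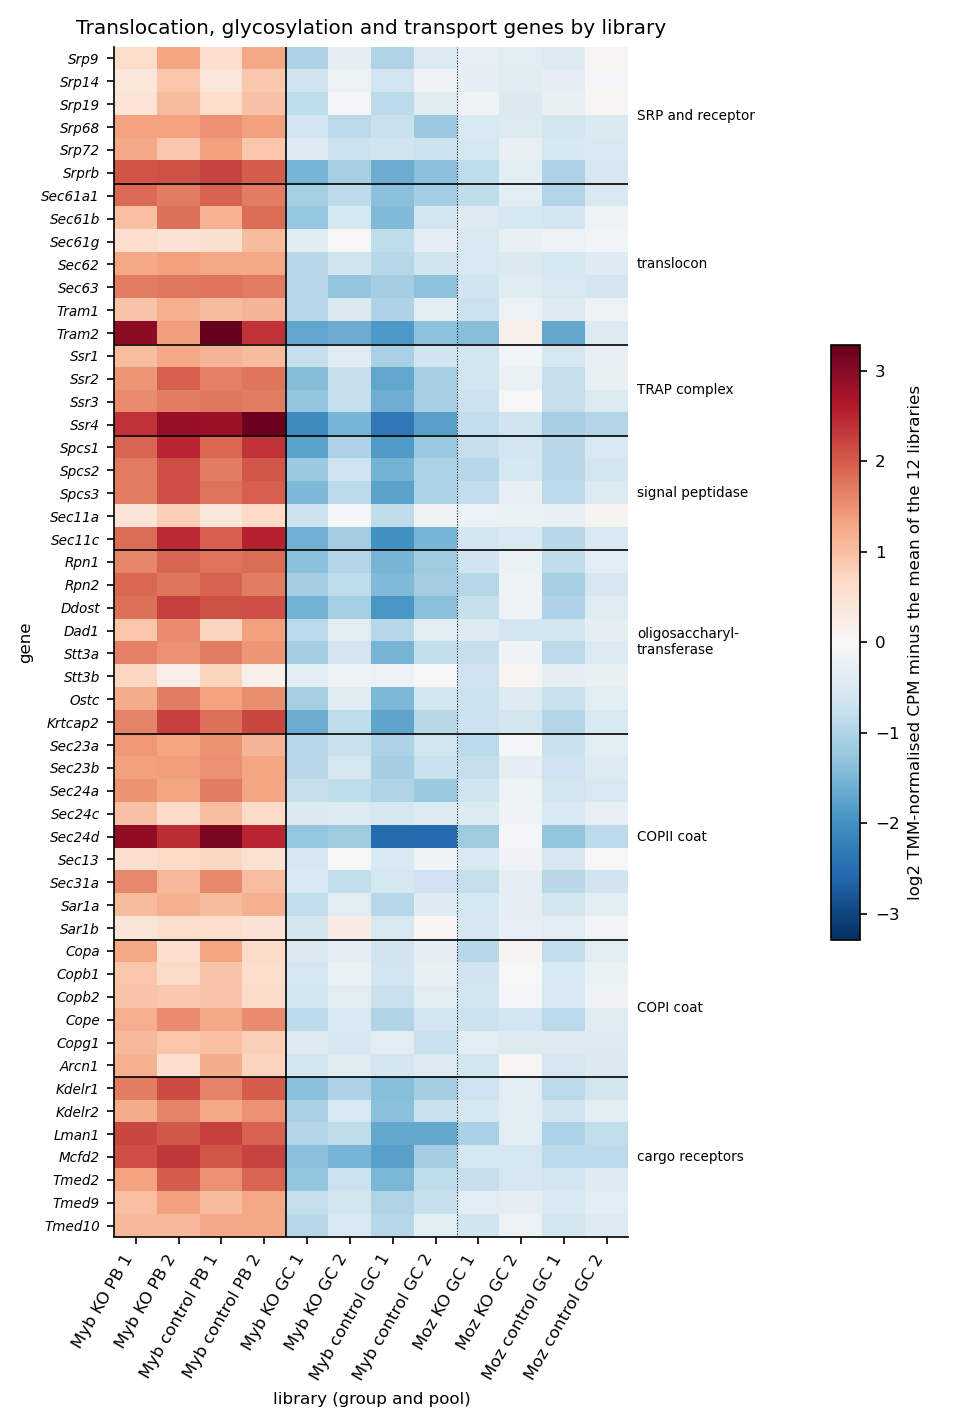
Heat map of all 52 genes (down the page, by role) in the 12 libraries (across): colour is log2 TMM-normalised CPM minus the gene's mean over the 12 libraries. The 4 plasmablast libraries on the left lie above the 8 GC libraries for nearly all genes, with the strongest colour for Ssr4, Sec24d and Tram2, and Stt3b, Sar1b, Sec13 and Sec61g are pale.

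SRP binds the emerging signal peptide and docks at the ER on its receptor. The 6 genes of this step all rose in control plasmablasts (median log2 1.74). Srprb, the receptor subunit anchored in the membrane, rose most. It had 328 and 336 CPM in Myb knockout plasmablasts and 362 and 311 in control plasmablasts, against 26.9 and 36.4 in Myb knockout GC B cells and 25.2 and 30.2 in Myb control GC B cells. Moz knockout GC pools had 44.2 and 61.5 CPM and Moz control GC pools 39.0 and 52.9. No plasmablast pool came near a GC pool, and control plasmablasts were 12.2-fold above control GC B cells (log2 3.60, SE 0.27, edgeR adjusted p = 7.38e-07). Srp68 and Srp72, which form a dimer on the SRP RNA, rose by log2 2.39 (SE 0.21) and 1.82 (SE 0.23). Srp9 and Srp14, the dimer that slows translation, rose by 1.65 (SE 0.34) and 1.00 (SE 0.28), and Srp19, an assembly subunit, by 1.40 (SE 0.30). Srp14 had 119 and 168 CPM in control plasmablasts and 59.0 and 84.3 in control GC B cells, groups that do not overlap but whose pools lie close. Its call (edgeR adjusted p = 0.00933) was lost without control GC pool 1 (log2 0.75, edgeR adjusted p = 0.086) or control plasmablast pool 2 (log2 0.71, edgeR adjusted p = 0.0961).

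Sec61a1, Sec61b and Sec61g form the channel through which the chain passes. Sec61a1, the pore subunit, had 1271 and 1059 CPM in control plasmablasts and 129 and 150 in control GC B cells (log2 3.06, SE 0.27, edgeR adjusted p = 2.73e-06). Its plasmablast pools lay far above its GC pools. Sec61b rose by log2 2.51 (SE 0.39), and Sec61g, the other small subunit, by 1.37 (SE 0.29). Sec61g was also the least counted of the 52, with 8.35 and 11.9 CPM in control plasmablasts and 3.21 and 4.60 in control GC B cells. How reads that match more than 1 copy of a gene were counted is not stated, so the level of this short gene is uncertain. Sec62 and Sec63, which help import chains that engage the channel poorly, rose by log2 2.07 (SE 0.20) and 2.97 (SE 0.21). Tram1, a membrane protein beside the channel, had 720.3 and 749.5 CPM in control plasmablasts and 173 and 269.5 in control GC B cells (log2 1.73, SE 0.29). Its relative Tram2 rose by 4.50 (SE 0.69, edgeR adjusted p = 0.000188), but its pools varied widely. They had 84.2 and 28.0 CPM in Myb knockout plasmablasts and 106 and 56.2 in control plasmablasts, against 3.30 and 3.49 in Myb knockout GC and 2.93 and 4.27 in Myb control GC B cells. Moz knockout GC pools stood at 4.14 and 12.3 CPM and Moz control GC pools at 3.37 and 7.94. In both plasmablast groups pool 1 was the higher, and in both Moz groups pool 2 was.

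The TRAP complex sits beside the channel and aids some signal peptides and glycosylation. Its 4 genes rose, Ssr1 by log2 1.91 (SE 0.26), Ssr2 by 3.08 (SE 0.34) and Ssr3 by 3.02 (SE 0.32). Ssr4 (gene ID 20832, mm10 chromosome X, 73787023 to 73790828) rose far more. It had 1144 and 1612 CPM in Myb knockout plasmablasts and 1549 and 2060 in control plasmablasts. GC pools had 53.2 and 76.2 CPM (Myb knockout), 43.1 and 63.9 (Myb control), 126 and 139 (Moz knockout) and 104 and 114 (Moz control). The groups of the 2 cell types were separated by a wide gap, and day 7 GC pools stood above day 12 GC pools. Control plasmablasts were 33.7-fold above control GC B cells (log2 5.08, SE 0.34, edgeR adjusted p = 3.97e-07). Per kilobase of gene length, Ssr4 was the highest of the 52 in control plasmablasts, at 2245 CPM per kb on average, followed by Sec11c at 1718 and Krtcap2 at 833. In Myb control GC B cells the averages of these genes were 66.6, 107 and 85.3 CPM per kb.

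Signal peptidase cuts the signal peptide off. Its catalytic subunit is Sec11a or Sec11c, and the 2 genes behaved differently. Sec11c had 985 and 1502 CPM in Myb knockout plasmablasts and 1064 and 1582 in control plasmablasts, against 91.3 and 124 in Myb knockout GC and 69.2 and 94.8 in Myb control GC B cells. Moz knockout GC pools had 178 and 194 CPM and Moz control GC pools 145 and 193. Plasmablast pools lay well above all GC pools (log2 4.01, SE 0.35, edgeR adjusted p = 2.08e-06 between the Myb controls). Sec11a had 97.9 and 130 CPM in Myb knockout plasmablasts and 94.8 and 116 in control plasmablasts, against 45.0 and 71.4 in Myb knockout GC and 41.1 and 67.8 in Myb control GC B cells. Its groups of the Myb mice did not overlap, but the rise was small (log2 0.96, SE 0.29, edgeR adjusted p = 0.0161). The call was lost without control GC pool 1 (log2 0.63, edgeR adjusted p = 0.139) or control plasmablast pool 2 (log2 0.78, edgeR adjusted p = 0.0968). The accessory subunits Spcs1, Spcs2 and Spcs3 rose by log2 3.66 (SE 0.36), 3.15 (SE 0.31) and 3.24 (SE 0.35).

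Oligosaccharyltransferase transfers the N-linked glycan from its lipid carrier to the chain. Its catalytic subunit is Stt3a, which works at the channel with Ostc and Krtcap2, or Stt3b, which can act after the chain has entered. Of its 8 genes 7 rose (median log2 2.90). Ddost, a subunit common to both forms, rose most (log2 3.72, SE 0.35, edgeR adjusted p = 4.38e-06). It had 1284 and 1316 CPM in control plasmablasts and 80.5 and 116 in control GC B cells. The other common subunits Rpn1, Rpn2 and Dad1 rose by log2 3.16 (SE 0.29), 3.10 (SE 0.32) and 1.70 (SE 0.32). Krtcap2 rose by 3.29 (SE 0.37) and Ostc by 2.42 (SE 0.33). Stt3a had 751 and 674 CPM in Myb knockout plasmablasts and 773 and 650 in control plasmablasts, against 110 and 154 in Myb knockout GC and 82.1 and 136 in Myb control GC B cells (log2 2.71, SE 0.33, edgeR adjusted p = 3.12e-05 between the controls). Stt3b had 359 and 253 CPM in Myb knockout plasmablasts and 362 and 248 in control plasmablasts, against 173 and 198 in Myb knockout GC and 193 and 220 in Myb control GC B cells. Plasmablast pools of Stt3b were above their GC pools by a margin smaller than the gap between the plasmablast pools. Its log2 of 0.56 (SE 0.29) did not pass (edgeR adjusted p = 0.123). Over the other settings tried, with the total-count setting aside, all 52 genes had a positive log2 fold.

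The COPII coat forms vesicles at ER exit sites. Sar1a and Sar1b are the GTPases that start the coat, Sec23 and Sec24 proteins form its inner layer, where Sec24 selects cargo, and Sec13 with Sec31a forms the outer cage. Of these 9 genes 8 rose. Sec24d (gene ID 69608, mm10 chromosome 3, 123264801 to 123365641) had the largest fold of all 52. It had 348 and 249 CPM in Myb knockout plasmablasts and 394 and 262 in control plasmablasts. Myb knockout GC pools had 19.2 and 20.6 CPM, Myb control GC pools 7.96 and 7.90, Moz knockout GC pools 20.4 and 43.9 and Moz control GC pools 18.6 and 25.3. The Myb control GC pools were the lowest of the 12 and nearly equal. Control plasmablasts were 41.3-fold above control GC B cells (log2 5.37, SE 0.41, edgeR adjusted p = 8.77e-07), and Myb knockout plasmablasts 15.0-fold above Myb knockout GC B cells (log2 3.91, SE 0.38, edgeR adjusted p = 6.03e-06).

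The other cargo adaptors rose less in control plasmablasts, Sec24a by log2 2.59 (SE 0.23) and Sec24c by 1.33 (SE 0.22). Sec24c had 288 and 218 CPM in control plasmablasts and 96.7 and 105 in control GC B cells, and Sec24a 207 and 160 against 32.8 and 28.2. The inner-layer pair Sec23a and Sec23b rose almost alike. Sec23a had 92.8 and 72.0 CPM in control plasmablasts and 16.6 and 21.7 in control GC B cells (log2 2.11, SE 0.29). Sec23b had 222 and 195 against 36.1 and 47.7 (log2 2.31, SE 0.24). Sec31a rose by log2 1.96 (SE 0.27). Sec13 rose by 0.90 (SE 0.26, edgeR adjusted p = 0.011), a call lost without control GC pool 1 (log2 0.73, edgeR adjusted p = 0.0873) or control plasmablast pool 1 (log2 0.79, edgeR adjusted p = 0.0592). Sar1a had 337 and 371 CPM in control plasmablasts and 86.3 and 122 in control GC B cells (log2 1.77, SE 0.24). Sar1b had 64.9 and 60.5 CPM in control plasmablasts and 30.5 and 45.5 in control GC B cells. Its log2 of 0.72 (SE 0.29) just missed the threshold (edgeR adjusted p = 0.0523).

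The 6 COPI subunits rose least as a group (median log2 1.45). This coat runs from the Golgi back to the ER. Cope rose most, with 410 and 497 CPM in control plasmablasts and 86.5 and 111 in control GC B cells (log2 2.20, SE 0.26, edgeR adjusted p = 2.63e-05). Copb1 rose least, with 324 and 254 CPM against 111 and 145 (log2 1.18, SE 0.27, edgeR adjusted p = 0.00307). Copa, Copb2, Copg1 and Arcn1 lay between, from log2 1.34 for Copb2 to 1.54 for Arcn1. Copa had 580.4 and 366 CPM in control plasmablasts and 151 and 192 in control GC B cells (log2 1.46, SE 0.37, edgeR adjusted p = 0.0062). Without control plasmablast pool 1, the call was lost (log2 1.08, edgeR adjusted p = 0.0526).

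Cargo receptors choose what enters the vesicles. All 7 rose (median log2 2.84). Lman1 and Mcfd2, which together export a group of glycoproteins from the ER, rose by log2 3.80 (SE 0.28) and 3.57 (SE 0.24). Lman1 had 660.04 and 590.3 CPM in Myb knockout plasmablasts and 686 and 553 in control plasmablasts. Myb knockout GC pools had 73.5 and 80.9 CPM, Myb control GC pools 44.6 and 44.5, Moz knockout GC pools 68.3 and 111 and Moz control GC pools 69.7 and 81.1. As for Sec24d, the Myb control GC pools were the lowest of the 12. Kdelr1 and Kdelr2 return ER proteins that end in KDEL. Kdelr1 had 288 and 371 CPM in control plasmablasts and 35.3 and 42.1 in control GC B cells (log2 3.09, SE 0.27). Kdelr2 had 196 and 233 against 31.9 and 49.7 (log2 2.39, SE 0.28). The TMED proteins, which cycle between ER and Golgi, rose by log2 2.84 (Tmed2), 2.02 (Tmed9) and 1.90 (Tmed10), with SE 0.32, 0.21 and 0.25. Tmed10, the smallest change of the receptors, had 190.0 and 196 CPM in control plasmablasts and 41.8 and 61.9 in control GC B cells.

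**Figure D2:**
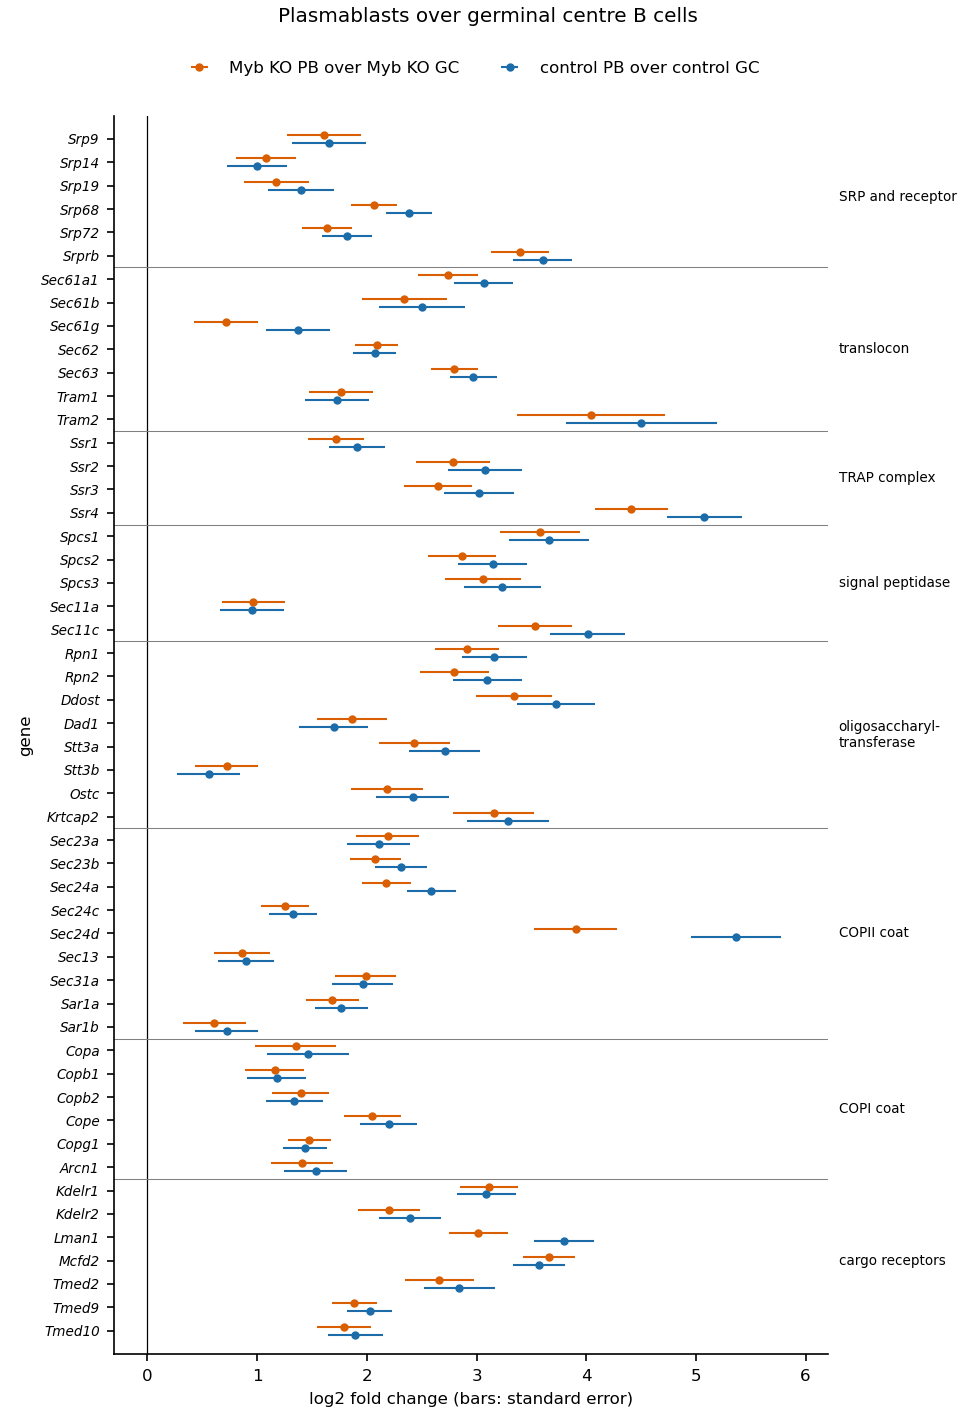
Log2 fold change of each of the 52 genes (down the page, by role) in plasmablasts over GC B cells. Myb knockout mice are orange (upper point of each pair) and control mice blue (lower point). Bars are standard errors derived from the edgeR F statistic. On this TMM scale all points lie above 0, the 6 COPI genes lie between 1.16 and 2.20, and the widest gap between the points of a pair is at Sec24d.

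Related genes can be compared within a library, which does not depend on the scaling between libraries. Pool differences that follow gene length, given below, do enter such ratios. Per kilobase, Sec11c stood at 14.6 to 19.7 times Sec11a in the 4 plasmablast libraries and at 2.02 to 4.45 times in the 8 GC libraries. Stt3a stood at 3.27 to 4.17 times Stt3b in plasmablasts and at 0.664 to 1.63 times in GC B cells. Per kilobase, Stt3a was thus below Stt3b in 3 of the 4 Myb GC libraries and above it elsewhere. This order rests on the lengths used. In counts not divided by length, Stt3a was below Stt3b in every GC library except Moz knockout pool 1. For Sar1a over Sar1b the ranges were 2.50 to 2.96 in plasmablasts and 1.17 to 1.80 in GC B cells. For Kdelr1 over Kdelr2 they were 1.78 to 1.99 and 0.989 to 1.40, and for Ssr4 over Ssr1 39.2 to 69.8 and 6.25 to 13.4. Sec24d was the larger adaptor in plasmablasts, at 1.34 to 1.60 times Sec24c, and the smaller in GC B cells, at 0.0882 to 0.392 times. Sec24a over Sec24c was 0.437 to 0.491 in plasmablasts and 0.179 to 0.292 in GC B cells. The ranges of these 7 ratios did not overlap between the cell types. The pairs were chosen, and the share of all gene pairs that separate so was not computed, so this count is a description. The ranges did overlap for Sec23b over Sec23a (3.18 to 3.81 in plasmablasts and 2.74 to 3.81 in GC B cells), for Tram2 over Tram1 (0.0720 to 0.303 and 0.0274 to 0.0829) and for Lman1 over Mcfd2 (2.28 to 3.19 and 1.89 to 4.47). A ratio that differs shows unequal change, not which of its genes changed.

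**Figure D3:**
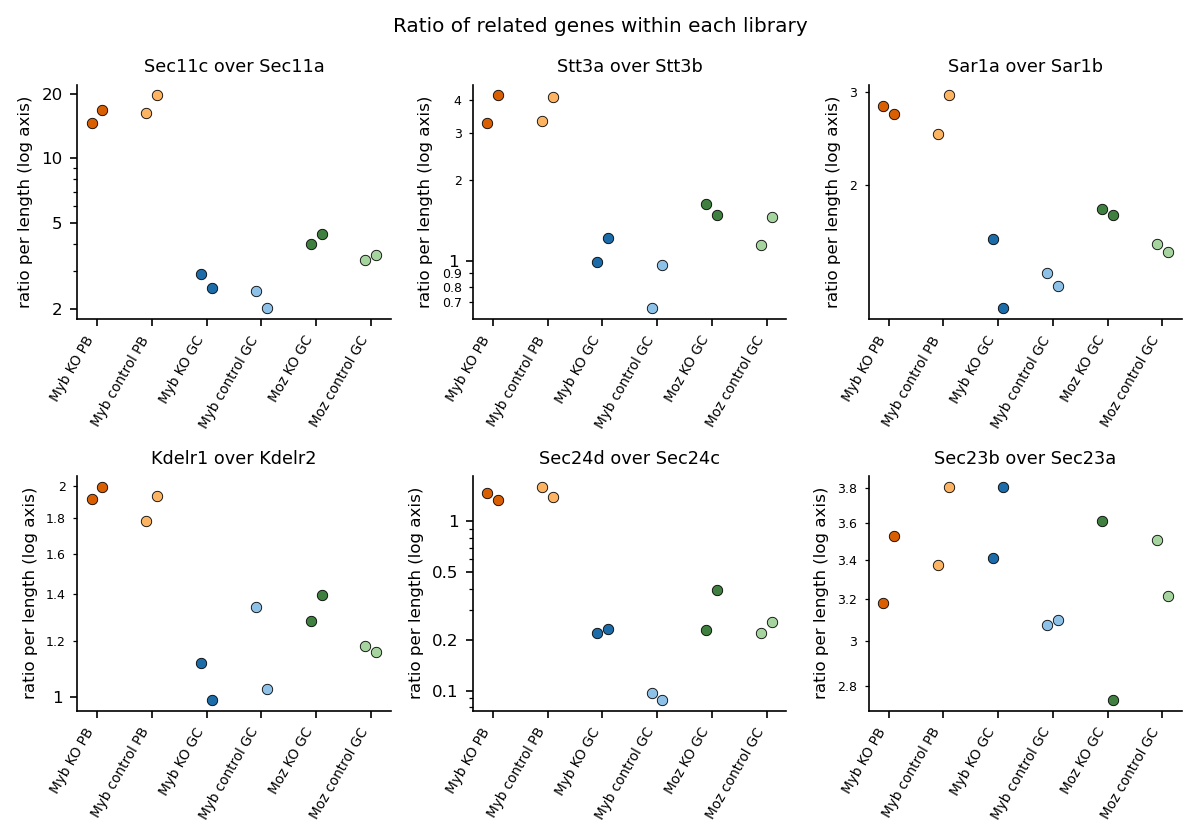
Ratio of paired genes per kilobase of gene length within each library (log axis), by group; each point is 1 pool. In 5 panels the plasmablast points on the left lie above all GC points, as for Sec11c over Sec11a at 14.6 to 19.7 against 2.02 to 4.45, and in the Sec23b over Sec23a panel they overlap.

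Promoters of the 52 genes were searched for the letters that factors of the unfolded protein response are known to bind, since XBP1 and ATF6 act on genes of this route. RefSeq promoter windows on GRCm38.p6, from 250 bases before to 50 after a transcript start, were matched for 40 of the 52 genes. They numbered 44, since a gene can have several starts, and a gene counts as holding a motif where any of its windows does. The start of a window need not be the outermost end of the annotated gene. Those not matched were Srp19, Srp68, Sec61a1, Tram1, Ssr2, Spcs3, Sec11c, Ostc, Arcn1, Kdelr2, Lman1 and Tmed2. Both strands were read. The letters TGACGTGG occurred in 4 of the 40, in Sec23a, Sec24d, Copb1 and Copb2, and in 0.714% of all genes with a window and 1.04% of tested genes. The ER stress element II occurred in 1 of the 40, Krtcap2, against 0.0444% of all genes and 0.0814% of tested genes. The longer ER stress element was in 0 of the 40 genes, against 0.137% of all genes and 0.153% of tested genes. The core ACGTG, which is part of TGACGTGG, was in 23 of the 40 genes (57.5%), against 21.8% of all genes and 29.4% of tested genes. The median log2 fold of control plasmablasts over control GC B cells was 2.03 for the genes with this core and 2.51 for those without it. With and without TGACGTGG the medians were 1.725 and 2.14. The windows of Sec24d, Sec23a and Copb2 are shown because the same letters stand near the start of genes of very different change. Sec24d rose 41.3-fold, Sec23a 4.32-fold and Copb2 2.53-fold. The window of Krtcap2, which rose 9.76-fold, is shown for its ER stress element II. Each is written 5′ to 3′ on the gene's own strand with the motif in capitals, and a match is letters in a window, not a shown binding site.
Sec24d, chr3:123267246-123267545, plus strand, TGACGTGG in capitals: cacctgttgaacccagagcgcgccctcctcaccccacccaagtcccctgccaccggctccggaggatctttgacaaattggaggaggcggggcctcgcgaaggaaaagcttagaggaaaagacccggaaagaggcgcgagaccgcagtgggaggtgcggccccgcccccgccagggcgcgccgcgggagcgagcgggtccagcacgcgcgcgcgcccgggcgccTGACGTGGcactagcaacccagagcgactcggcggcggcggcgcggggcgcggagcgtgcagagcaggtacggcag
Sec23a, chr12:59011968-59012267, minus strand, TGACGTGG in capitals: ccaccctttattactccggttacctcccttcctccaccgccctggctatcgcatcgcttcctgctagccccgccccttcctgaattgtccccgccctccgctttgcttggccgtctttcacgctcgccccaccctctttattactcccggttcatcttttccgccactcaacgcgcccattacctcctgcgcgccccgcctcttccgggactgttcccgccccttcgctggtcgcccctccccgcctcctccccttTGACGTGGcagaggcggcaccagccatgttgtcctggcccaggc
Copb2, chr9:98563481-98563780, plus strand, CCACGTCA (TGACGTGG on the other strand) in capitals: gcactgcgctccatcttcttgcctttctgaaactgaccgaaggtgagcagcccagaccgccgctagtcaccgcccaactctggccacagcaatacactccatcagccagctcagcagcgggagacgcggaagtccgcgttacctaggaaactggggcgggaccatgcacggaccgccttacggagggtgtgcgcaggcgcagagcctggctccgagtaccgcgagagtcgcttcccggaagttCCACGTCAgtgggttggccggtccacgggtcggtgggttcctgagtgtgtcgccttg
Krtcap2, chr3:89246223-89246522, plus strand, ER stress element II in capitals: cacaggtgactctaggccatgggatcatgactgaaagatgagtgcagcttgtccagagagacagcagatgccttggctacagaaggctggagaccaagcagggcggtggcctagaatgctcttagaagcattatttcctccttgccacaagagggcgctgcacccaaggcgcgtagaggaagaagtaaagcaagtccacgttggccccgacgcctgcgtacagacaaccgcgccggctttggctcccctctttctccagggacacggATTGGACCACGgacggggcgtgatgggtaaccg
The capitals of Sec24d begin 26 bases before the transcript start of its window and those of Copb2 7 bases before theirs, while those of Sec23a begin 6 bases and those of Krtcap2 17 bases after theirs. The transcript start of the Sec24d window (chromosome 3, 123267496) lies 2695 bases inside the annotated gene, and that of the Krtcap2 window (chromosome 3, 89246473) 569 bases inside. Those of Sec23a and Copb2 are the outermost starts of their genes.

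Other genes of the same route, from lists of further components, were also compared between control plasmablasts and control GC B cells, where 25.0% of all tested genes were called higher and 28.1% lower. Of 26 genes of targeting and membrane insertion 17 rose and 2 fell. H13, a protease that clears spent signal peptides, rose by log2 4.46 (SE 0.34), and Srpr, the other subunit of the SRP receptor, by 3.22 (SE 0.26). Tusc3, a subunit that joins Stt3b, fell by 1.25 (SE 0.29), and Emc8 of the ER membrane complex fell by 1.03 (SE 0.28). Magt1, which can take the place of Tusc3, rose by 2.59 (SE 0.29). Of 36 genes of N-glycan assembly and trimming 28 rose and 1, Alg13, fell (log2 -0.999, SE 0.23). Alg2, a mannosyltransferase of the lipid-linked glycan, rose by 3.88 (SE 0.21), Fut8, which adds the core fucose found on antibodies, by 3.62 (SE 0.25) and the trimming mannosidase Man1b1 by 3.27 (SE 0.23). The edgeR adjusted p of the genes named for these lists were at most 0.00922.

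Among 15 tested genes of COPII and ER exit 9 rose and 1 fell: Bet1, a SNARE of ER to Golgi vesicles, rose by log2 3.28 (SE 0.27), and Sec16b, an exit site scaffold, fell by 3.96 (SE 0.74). Among 17 of COPI and retrograde transport 10 rose and 4 fell, with Copz2, an alternative COPI subunit, at 6.82 (SE 0.47), Arfgap3, which helps shed the coat, at 4.24 (SE 0.23), Nbas at 2.87 (SE 0.35) and Arf4, a GTPase of early Golgi traffic, at 2.86 (SE 0.33). The genes that fell were Bnip1 (log2 -1.28), Arf5 (log2 -0.96), Arfgap2 (log2 -0.73) and Zw10 (log2 -0.72). Among 17 further cargo receptors and intermediate compartment genes 13 rose and 1 fell, with Kdelr3 at 6.10 (SE 0.45), Ergic1 at 3.64 (SE 0.27), Tmed3 at 3.36 (SE 0.28) and Tmed8 at -2.14 (SE 0.23). All 10 regulators of the secretory pathway rose. Bhlha15, the gene of MIST1, a factor of secretory cells, had log2 7.63 (SE 0.29), the membrane-bound factor gene Creb3l2 7.59 (SE 0.63), Ern1, which encodes the sensor that activates Xbp1, 6.34 (SE 0.71) and Xbp1 itself 5.29 (SE 0.35). The edgeR adjusted p of the genes named for these lists were at most 0.0181. Median log2 folds were 1.14 for targeting and insertion, 1.71 for N-glycans, 1.37 for COPII, 0.88 for COPI, 1.72 for cargo receptors and 4.26 for the regulators. These counts and medians are on the TMM scale, like the folds of the 52 genes. Divided by total counts with immunoglobulin included, the genes called higher and lower were 4 and 15 for targeting and insertion, 7 and 14 for N-glycans, 2 and 7 for COPII, 4 and 11 for COPI, 6 and 5 for cargo receptors and 6 and 0 for the regulators. The medians on that scale were log2 -0.74 for targeting and insertion, -0.18 for N-glycans and -0.51 for COPII. They were -0.997 for COPI, -0.16 for cargo receptors and 2.39 for the regulators. Of the 6 medians 5 turned sign, but all 6 lay above the median of all tested genes on that scale, log2 -2.04. Of all tested genes 1108 were called higher and 9877 lower there.

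In the Myb knockout groups the same separation of plasmablasts from GC B cells was seen. Of the 52 genes, 49 were called higher and 0 lower in Myb knockout plasmablasts against Myb knockout GC B cells, where 24.4% of all tested genes were called higher and 27.2% lower, and 47 were at least 2-fold higher (19.8% of all tested genes). All 52 had both plasmablast pools above both GC pools, as had 32.9% of all tested genes, while 41.0% had them below. At an unadjusted p under 0.05 were 51 of the 52 and 57.2% of all tested genes. The median log2 was 2.13, against -0.17 over all tested genes. Stt3b (log2 0.72, SE 0.29, edgeR adjusted p = 0.0549), Sec61g (log2 0.72, SE 0.29, edgeR adjusted p = 0.0563) and Sar1b (log2 0.61, SE 0.29, edgeR adjusted p = 0.0959) did not pass. The date block called 52 of 52 (30.7% of all tested genes), and here too it pairs no pools, so the 3 calls gained support nothing. Ssr4 had the largest fold, at 21.3 (log2 4.41, SE 0.33, edgeR adjusted p = 1.05e-06), followed by Tram2 at 16.5 and Sec24d at 15.0. Without knockout plasmablast pool 1, the log2 fold of Tram2 was 3.07 (SE 0.62), against 4.04 (SE 0.67) with all pools. Scaled by total counts, 20 of the 52 were called higher and 11 lower (884 and 10394 of all tested genes), and all tested genes had a median of -2.21. With immunoglobulin left out and no scaling factor it was 47 and 0, with 2233 and 5042 of all tested genes. Without knockout GC pool 1 the count was 44, with the calls of Srp14, Srp19, Sec11a, Sec13 and Copa lost (edgeR adjusted p from 0.053 to 0.124).

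Loss of Myb left no called change among the 52 genes in plasmablasts. Between Myb knockout and control plasmablasts edgeR called 0 of the 52 higher and 0 lower, with 0 at an unadjusted p under 0.05, and DESeq2, limma-voom and the fit with the date called 0 as well. Of all tested genes the date fit called 0.213% higher and 0.366% lower, DESeq2 0.160% and 0.221%, and limma-voom 0.0152% and 0.0609%. In the edgeR fit without the date 0.00762% were called higher and 0.0305% lower, and 3.78% had an unadjusted p under 0.05. Of the 52, 0 lay with both knockout pools above both control pools (13.6% of all tested genes) and 2 with both below (11.6%). Estimates were positive for 26 of the 52, and 49 of the 52 estimates lay within 0.2 of no change, with standard errors from 0.19 to 0.57. Outside that range were Tram2 (log2 -0.54, SE 0.57), Ssr4 (log2 -0.39, SE 0.29) and Sec61g (log2 -0.28, SE 0.29), and the edgeR adjusted p of all 3 was 1. Tram2 pools of knockout and control overlapped, and so did those of Ssr4 and Sec61g. Single pools weighed on these values, and leaving out 1 pool leaves the dates of knockout and control unequal. Within 0.2 of no change were 25 estimates without knockout pool 1, 32 without knockout pool 2, 33 without control pool 2 and 38 without control pool 1. Without knockout pool 1 Tram2 stood at log2 -1.51, and without knockout pool 2 only 16 estimates were positive. With 2 pools against 2, the smallest p that an exact permutation test can give is 0.333.

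In Myb knockout over control GC B cells, Sec24d and Lman1 had the largest log2 folds of the 52 genes. Sec24d had 19.2 and 20.6 CPM in Myb knockout GC pools and 7.96 and 7.90 in control GC pools, and Lman1 73.5 and 80.9 against 44.6 and 44.5. Both knockout pools lay above both control pools by more than the spread within either group. Sec24d was 2.51-fold higher (log2 1.33, SE 0.36) and Lman1 1.73-fold (log2 0.79, SE 0.25). Neither passed over all genes in the fit without the date (edgeR adjusted p = 0.249 and 0.370), where 0 of the 52 were called and 2 had an unadjusted p under 0.05 (5.75% of all tested genes). There, 0.236% of all tested genes were called higher and 0.0228% lower. With the date as a block both rose, Sec24d with log2 1.32 (SE 0.17, edgeR adjusted p = 0.00178) and Lman1 with log2 0.79 (SE 0.14, edgeR adjusted p = 0.0119), 2 of 52 where 2.03% of all tested genes were called higher and 0.396% lower. Over all settings the adjusted p ran from 0.000468 to 0.866 for Sec24d and from 0.00358 to 0.999 for Lman1. DESeq2 called Sec24d (adjusted p = 0.0345) and limma-voom neither. Neither the 2 genes at an unadjusted p under 0.05 nor the 2 called with the date set the 52 apart from all tested genes.

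The other 50 genes lay between log2 -0.16 (Stt3b) and 0.39 (Sec11c) in this comparison. Of the 52 estimates 44 were positive, where 49.9% of all tested genes were, and the median log2 was 0.14. Sec24d, Lman1, Sec61a1, Sec24a and Rpn2 had both knockout pools above both control pools, 5 of 52 where 13.8% of all tested genes did. Pool 2 lay above pool 1 for 45 of the 52 genes in knockout and 44 in control GC B cells. Leaving out 1 pool leaves the dates of knockout and control unequal. The median after leaving out a pool therefore includes the shift between dates, and it turned sign. It was -0.04 without control pool 1 (22 positive) and -0.06 without knockout pool 2 (21 positive), and 0.37 and 0.35 without knockout pool 1 and control pool 2. Beside these values, plasmablast markers summed to 1521 and 2271 CPM in knockout GC pools and 1167 and 1906 in control GC pools, and 7 of the 8 had a positive log2. Prdm1 (log2 2.34, SE 0.35) and Bhlha15 (log2 1.83, SE 0.27) were called higher, both at an edgeR adjusted p of 0.0248. Creb3l2 had log2 2.07 (SE 0.58, edgeR adjusted p = 0.259) and was called with the date (edgeR adjusted p = 0.00126). The part of these genes in the values of Sec24d and Lman1 was not tested.

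**Figure D4:**
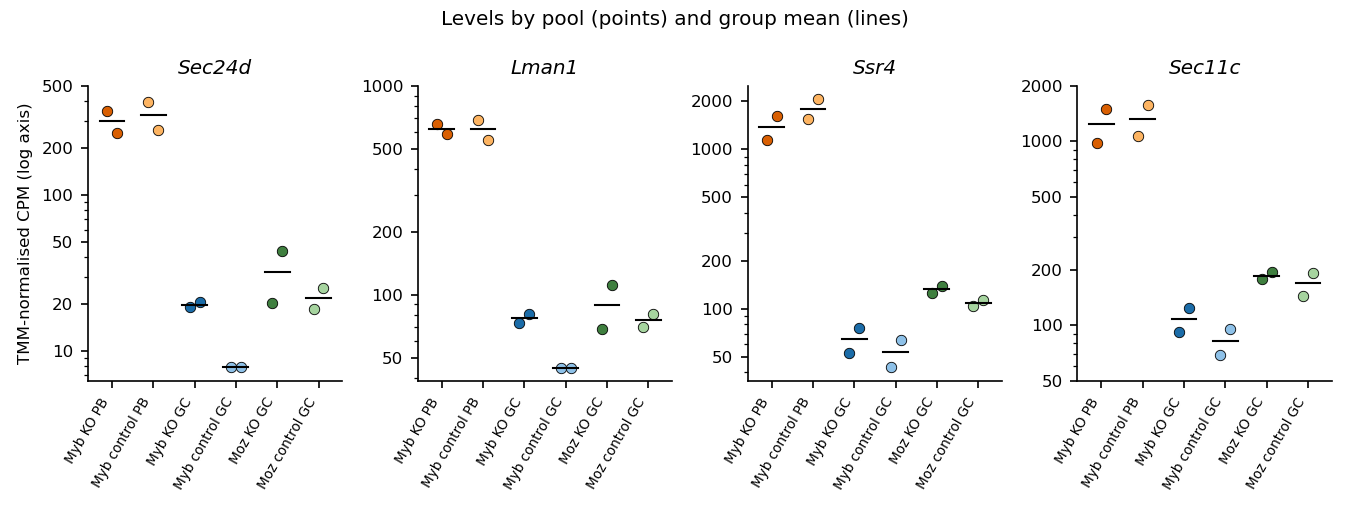
TMM-normalised CPM (log axis) of Sec24d, Lman1, Ssr4 and Sec11c by group; points are pools and lines group means. For Sec24d and Lman1 the Myb control GC pools (7.96 and 7.90, 44.6 and 44.5) lie below the Myb knockout GC pools, while the plasmablast groups overlap.

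The effect of Myb loss on Sec24d differed between the cell types in the fit with the date. It was log2 -0.14 in plasmablasts and 1.33 in GC B cells, where the difference, plasmablasts minus GC B cells, was -1.46 (SE 0.49, edgeR adjusted p = 0.958). With the date the difference was -1.45 (SE 0.22, edgeR adjusted p = 0.0139). Over all settings its adjusted p ran from 0.0101 to 1.00. Without the date 0 of the 52 genes were called, against 0 higher and 0.00762% lower of all tested genes. With it Sec24d was the 1 member called lower, against 0.480% of all tested genes. The next largest difference was that of Lman1, at log2 -0.78, which did not pass. The median of the 52 differences was -0.17, 12 were positive and 32 lay within 0.2 of 0. Here too, leaving out a pool leaves the dates of knockout and control unequal, so the shift between dates enters the median. This median turned with the pools, to 0.01 without control GC pool 1 (27 positive) and 0.02 without knockout GC pool 2 (30 positive). It was -0.36 without knockout GC pool 1 (5 positive, 16 within 0.2) and -0.38 without control GC pool 2 (3 positive, 13 within 0.2). It was -0.04 without knockout plasmablast pool 1 (23 positive) and -0.24 without knockout plasmablast pool 2 (15 within 0.2). Sec24d had the lowest difference in each of these cases.

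Loss of Moz gave no called change in the set. Between Moz knockout and control GC B cells edgeR called 0 of the 52, and 0% of all tested genes, with 2.40% of them and 0 of the 52 at an unadjusted p under 0.05. DESeq2 called 11 genes higher, none of them among the 52, limma-voom called 0, and with the date 0 of the 52 were called (0.267% of all tested genes higher and 0.0305% lower). The largest estimates were again those of Sec24d (log2 0.55, SE 0.34) and Tram2 (log2 0.54, SE 0.59), both with 1 as the edgeR adjusted p. Sec24d had 20.4 and 43.9 CPM in knockout and 18.6 and 25.3 in control pools, groups that overlap because knockout pool 1 lies between the controls. The median log2 over the 52 was 0.08, and 36 estimates lay within 0.2 of no change, with standard errors from 0.19 to 0.59. Pool 2 lay above pool 1 for 45 of the 52 genes in knockout and 50 in control pools. That shift enters the median when 1 pool is left out. Without knockout pool 2 the median was -0.07 and 10 estimates were positive, against 38 with all pools. Without control pool 1 it was -0.05 with 19 positive. Without knockout pool 1 it was 0.26 and 20 estimates lay within 0.2, and without control pool 2 it was 0.22 and 22 did. Plasmablast markers summed to 6725 and 8148 CPM in knockout pools and 5337 and 5902 in control pools. In the test of Myb against Moz loss in GC B cells, 0 of the 52 differed, with the date or without it. Of all tested genes 0% were called either way without the date, and 0.183% higher and 0.0533% lower with it. The largest of these differences, Myb minus Moz, was that of Sec24d, at log2 0.77 (SE 0.49, edgeR adjusted p = 1.00).

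Control GC B cells of the 2 experiments were also compared. The comparison sets day 12 of the Myb experiment against day 7 of the Moz experiment, so day, experiment, cre and depth cannot be told apart. Of the 52 genes, 48 had a lower estimate at day 12, with a median log2 of -0.48 against -0.02 over all tested genes. The median was -0.24 without day 12 pool 1 (11 positive estimates), -0.28 without day 7 pool 2 (9 positive), -0.65 without day 12 pool 2 (3 positive) and -0.58 without day 7 pool 1 (2 positive). In 29 of the 52 both day 12 pools lay below both day 7 pools, as in 19.2% of all tested genes. Without the date edgeR called 0 of the 52, where 0.297% of all tested genes were called higher and 1.08% lower, and 15 of the 52 had an unadjusted p under 0.05 (7.78% of all tested genes). DESeq2 called 4 lower (2.25% of all tested genes) and limma-voom 0 (0.716%). With the date block the count was 26 lower, against 4.06% of all tested genes, and 0 higher. Day 12 and day 7 pools share no date, so that block takes the spread between dates, which is the error of this comparison, out of the test, and its calls are not read.

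By role, both day 12 pools lay below both day 7 pools for 6 of 7 cargo receptors, 5 of 6 genes of SRP, 4 of 5 of signal peptidase, 4 of 4 of TRAP, 4 of 7 of the translocon, 3 of 8 of oligosaccharyltransferase, 3 of 9 of COPII and 0 of 6 of COPI. Sec24d had 7.96 and 7.90 CPM at day 12 and 18.6 and 25.3 at day 7 (log2 -1.47, SE 0.36, edgeR adjusted p = 0.0863). Sec11c had 69.2 and 94.8 CPM at day 12 and 145 and 193 at day 7 (log2 -1.04, SE 0.31, edgeR adjusted p = 0.193). Ssr4 had 43.1 and 63.9 CPM at day 12 and 104 and 114 at day 7 (log2 -1.03, SE 0.29, edgeR adjusted p = 0.166). None of the 3 passed. The pools of these 3 genes did not overlap between the days. Ddost (log2 -0.93, SE 0.32), Ssr2 (log2 -0.89, SE 0.32), Spcs1 (log2 -0.80, SE 0.33), Lman1 (log2 -0.76, SE 0.25) and Rpn1 (log2 -0.76, SE 0.27) followed, and none of them passed either. Copa (log2 0.10), Sar1b (log2 0.02), Sec31a (log2 0.14) and Stt3b (log2 0.18) had positive estimates.

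The same GC pools differed in plasmablast transcripts. The sum over plasmablast markers was 1167 and 1906 CPM at day 12 and 5337 and 5902 at day 7, with all 8 lower and 6 called. Among the regulators, Bhlha15 (log2 -3.18, SE 0.26, edgeR adjusted p = 0.00089) and Creb3l2 (log2 -2.97, SE 0.56, edgeR adjusted p = 0.0278) were called lower, and Xbp1 had log2 -1.16 (SE 0.30, edgeR adjusted p = 0.113). GC marker sums were 1738 and 2087 CPM at day 12 and 1462 and 1533 at day 7. The part of plasmablast transcripts in the values of the 52 genes was not tested.

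Pools of one group differed by a pattern that followed gene length. In Myb knockout plasmablasts the log2 ratio of pool 2 to pool 1 ran from -1.59 (Tram2) to 0.82. Its rank correlation with gene length over the 52 genes was -0.64 there and -0.69 in control plasmablasts, -0.67 in Myb knockout GC and -0.60 in Myb control GC B cells. It was 0.49 in Moz knockout and -0.31 in Moz control GC B cells. Over all tested genes these values were -0.47, -0.45, -0.39, -0.33, 0.31 and -0.20. In control plasmablasts the 17 genes shorter than 1500 bases had a median ratio of log2 0.35 and the 21 genes of 3000 bases or more -0.32. Genes share the same 2 libraries in each such value, which is therefore a description. The folds between groups also went with length in some comparisons. Over the 52 genes the rank correlation of the log2 fold with length was 0.37 for Moz knockout over control GC B cells (0.19 over all tested genes), 0.29 for day 12 over day 7 (0.14) and -0.37 for the difference Myb minus Moz (-0.21). It was -0.13 for control plasmablasts over control GC B cells (0.05), -0.12 for the same comparison in knockouts (0.03), -0.17 for Myb knockout over control GC B cells (-0.09), 0.09 for Myb knockout over control plasmablasts (-0.17) and 0.18 for the difference of the Myb effect (-0.07). The part of length in the folds was not tested.

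**Figure D5:**
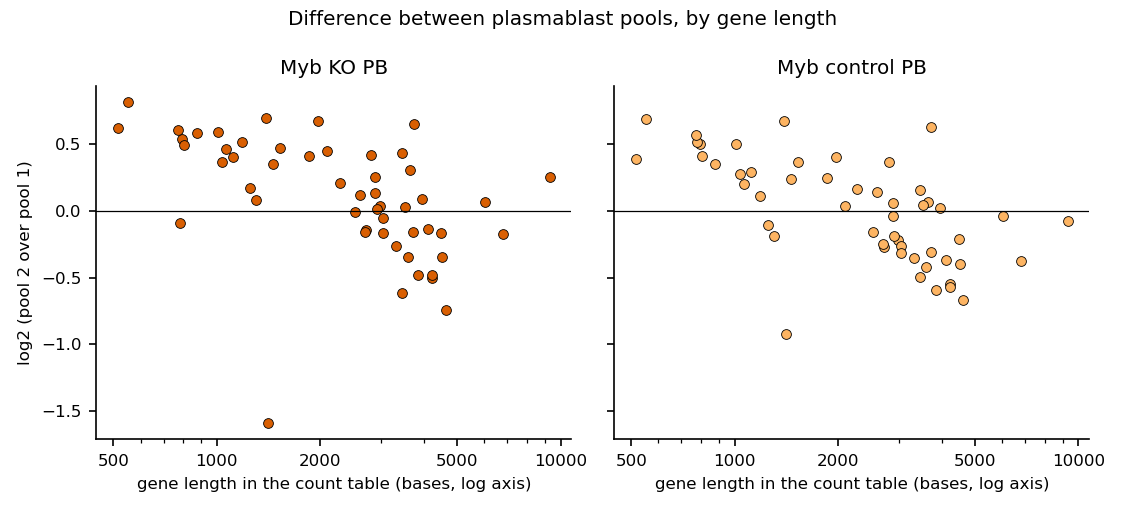
Log2 ratio of pool 2 to pool 1 (TMM-normalised CPM) against gene length in the count table (log axis) for each of the 52 genes, in Myb knockout (left) and control plasmablasts (right). Short genes lie mostly above 0 and long genes mostly below it in both panels, and Tram2 is the lowest point at -1.59 and -0.92.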

How the data were processed

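Whole-gene counts of 12 libraries in 6 groups of 2 were used as deposited. The authors made them with featureCounts against mm10, per the submitters' processing notes, while the aligner, the strand setting and the handling of multi-mapping reads are not given. Of 27179 gene IDs 25275 had a symbol. Genes with low counts were removed with filterByExpr of edgeR 4.0.16 in R 4.3.3 (minimum count 10, minimum total 15), which left 13131. One quasi-likelihood model with robust settings and a mean for each group was fitted to all 12 libraries with TMM scaling, and p-values were adjusted by Benjamini-Hochberg over the 13131 genes, with 0.05 as threshold. It left 6 residual degrees of freedom. Fitted log2 folds are given with standard errors (SE), each computed as the absolute log2 fold divided by the square root of the edgeR F statistic. Groups were compared in 8 contrasts.

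Same-numbered knockout and control pools share experiment dates in the labels. Their deviations from the group means correlated at 0.749 (Myb GC), 0.658 (plasmablasts) and 0.306 (Moz GC). Same-numbered plasmablast and GC pools, which share no date, correlated at 0.323 (controls) and 0.418 (Myb knockouts). The Moz value was thus no higher than those of pools without a common date. Because of the shared dates, a fit with the date as a block, nested in each experiment, was also run. This fit left 3 residual degrees of freedom. It pairs knockout with control only, and cannot pair plasmablasts with GC B cells or day 12 with day 7. Replicates of 1 group differed by more than counting noise, with chi-square per degree of freedom from 28.2 to 103. Alternatives were DESeq2 1.42.0, limma-voom (limma 3.58.1), other scalings, no filter, the compared groups alone and each pool left out. The script was tested on simulated data. Precision rests on 2 pools a group and on 8285934 to 24801297 counts a library.

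The 52 members and the gene lists were chosen with earlier results of these data known. Named are all members, with values per library for the paralog pairs and for the largest and smallest change of each role, and up to 4 called genes of each other list with the largest change. Tusc3, Emc8, Alg13, Arf5, Arfgap2, Bnip1, Zw10, Tmed8, Xbp1, Prdm1 and Slpi were added after their values were seen. Promoter sequences come from RefSeq windows on GRCm38.p6.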

Additional observations from a re-analysis of the deposited data

Results flagged for a closer look

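In a test of the difference itself, the effect of Myb loss on Sec24d, the COPII cargo adaptor, differed between plasmablasts and GC B cells only in some fits. The difference was called in 4 of the 20 settings tried beside the fit without the date. In the fit with the experiment date, the difference, plasmablasts minus GC B cells, was log2 -1.451 (SE 0.22, edgeR adjusted p = 0.0139), and without the date it was log2 -1.46 (SE 0.49, edgeR adjusted p = 0.958). Its adjusted p lay between 0.0101 and 1.00 under the settings tried. Sec24d had 348 and 249 CPM in Myb knockout plasmablasts and 394 and 262 in control plasmablasts, and 19.2 and 20.6 CPM in Myb knockout GC pools and 7.96 and 7.90 in control GC pools. The GC groups did not overlap and the plasmablast groups did. Beside it, Creb3l2, Bhlha15 and Slpi also had lower differences in the fit with the date, of log2 -2.23, -1.94 and -2.19, and their part in the value of Sec24d was not tested.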

How the results depend on the processing

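Among the 52 genes, 782 of 832 values over the settings for control plasmablasts against control GC B cells kept direction and side of the threshold, as did 770 of 832 for Myb knockout plasmablasts against Myb knockout GC B cells. Leaving out 1 pool gave 47 to 51 and 44 to 50 genes called higher, and 0 called in every other comparison. Division by total counts, with no scaling factor, gave 22 higher and 7 lower between controls and 20 higher and 11 lower between knockouts. On that scale the log2 folds between controls turned to -0.24 (Srp9), -0.89 (Srp14), -0.49 (Srp19), -0.049 (Srp72), -0.51 (Sec61g), -0.14 (Tram1), -0.92 (Sec11a), -0.19 (Dad1), -1.30 (Stt3b), -0.54 (Sec24c), -0.97 (Sec13), -0.11 (Sar1a), -1.14 (Sar1b), -0.39 (Copa), -0.69 (Copb1), -0.53 (Copb2), -0.45 (Copg1) and -0.33 (Arcn1). Between knockouts they turned to -0.43 (Srp9), -0.97 (Srp14), -0.87 (Srp19), -0.42 (Srp72), -1.32 (Sec61g), -0.28 (Tram1), -0.32 (Ssr1), -1.07 (Sec11a), -0.18 (Dad1), -1.32 (Stt3b), -0.80 (Sec24c), -1.18 (Sec13), -0.067 (Sec31a), -0.36 (Sar1a), -1.42 (Sar1b), -0.69 (Copa), -0.88 (Copb1), -0.65 (Copb2), -0.58 (Copg1), -0.63 (Arcn1), -0.17 (Tmed9) and -0.25 (Tmed10). The setting itself moves the median of all genes, to -2.04 and -2.21.

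With the date as a block, 2 genes were called higher in Myb knockout GC B cells, 1 had a lower difference of the Myb effect and 26 were lower at day 12. With immunoglobulin genes also left out these counts were 2, 1 and 25, and with no scaling factor as well 4, 2 and 29. DESeq2 gave 1, 0 and 4, no filter 1, 1 and 3, and the compared groups alone 1 at day 12. The counts in this section show how calls move with the setting and are not set against all tested genes. The day 12 and day 7 pools, like plasmablasts and GC B cells, share no date, so block calls between them support nothing, and those of Stt3b, Sar1b and Sec61g are of this kind. The block changed no other call. The causes were not tested. With 2 pools a group, small changes stay undetectable, and Sec61g and Tram2 in GC B cells rest on few counts.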
